A study of Rattus norvegicus with 74 samples.

Results

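Genes of blood vessels were examined: 40 genes listed by symbol for endothelial cells, for the pericytes that wrap them, and for the signals that make vessels grow. Of these, 39 were among the 30560 genes of the tables, and Cldn5 was not found by its symbol. The 39 fall into 15 endothelial genes (surface proteins, channels, receptors and enzymes), 2 VEGF ligands, 5 VEGF receptors and co-receptors, 4 genes of the angiopoietin and TIE system, 4 of Notch signalling, 4 endothelial transcription factors, 3 pericyte genes and 2 hypoxia-inducible factors. The genes are named by function and not by a measured value, although the list was made with earlier results of these data known.

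RNA was sequenced from male wild-type Wistar Kyoto rats. The trained rats (ExT) ran on a treadmill for 4 weeks from the age of 5 weeks, 5 days a week, in sessions that lengthened from 20 to 60 min at 15 m/min in the first week and then stayed at 60 min and 20 m/min. The sedentary rats (Sed) spent the same time on a treadmill that did not move, and both arms drank water with 8% deuterium oxide. All were killed at 9 weeks, 24 h after the last session. Whole inner red gastrocnemius (SM) and mitochondria immunoprecipitated from a fresh piece of it and then digested with RNase A and proteinase K (MT) gave 15 libraries per arm each, and the wall of the left ventricle (LV) gave 7 per arm, all from rats that also gave SM.

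Capillaries of muscle are tubes of endothelial cells held together by junction proteins and covered by pericytes. Muscle fibres and other cells release VEGF-A, which acts on endothelial receptors, and Notch and angiopoietin signals then shape and steady the new vessel. Endurance training is known to raise the number of capillaries around muscle fibres, and the hypoxia-inducible factors HIF-1α and HIF-2α are among the regulators of VEGF-A.

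An SM library had between 19477976 and 39401323 counts, an LV library between 54645657 and 75758777, and an MT library between 530397 and 9988027. The members together held 0.352% ± 0.07 of the nuclear-encoded counts in SM_Sed and 0.415% ± 0.0502 in SM_ExT (SD, n = 15 each), 0.516% ± 0.021 in LV_Sed and 0.523% ± 0.0183 in LV_ExT (SD, n = 7 each), and 0.277% ± 0.0163 in MT_Sed and 0.27% ± 0.00931 in MT_ExT (SD, n = 15 each). A single library had at least 32 counts of every member in SM and at least 10 in LV, but as few as 3 in MT. Between SM and LV, tissue markers followed the labels: 7 skeletal fibre markers summed to between 75100 and 140000 CPM (counts relative to a library's total, scaled with TMM, trimmed mean of M-values) in SM and 1350 to 1990 in LV, and 6 cardiomyocyte markers to 17.2 to 80.4 CPM in SM and 26200 to 36300 in LV. In these bulk samples, fewer vessel cells and less RNA per vessel cell cannot be told apart. CPM values are not set side by side between genes below, because gene length enters them.

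Training was first compared in whole muscle. The members lay higher in trained muscle than in sedentary muscle for 35 of 39 genes, against 47.9% of all 13570 genes tested, but the differences were small and 0 of 39 passed edgeR's quasi-likelihood test at a Benjamini-Hochberg adjusted p under 0.05. That test called 28 genes, or 0.206% of those tested, and from 12 to 100 when 1 library was left out. It called 100, 69 and 46 genes without sedentary rats 23, 29 and 30, and 12 without sedentary rats 4, 8 or 12 or trained rat 27. It called 13 without trained rats 5, 10 or 14, 14 without sedentary rats 7 or 20 or trained rat 6, 16 without trained rat 25 and 18 without sedentary rat 24. The median log2 difference (ExT minus Sed) was 0.16 over the members and -0.01 over all genes. At an unadjusted p under 0.05 there were 19 of 39 members, against 13.7% of all genes. DESeq2 called 1 member, Epas1, among 0.551% of its tested genes.

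**Figure D1:**
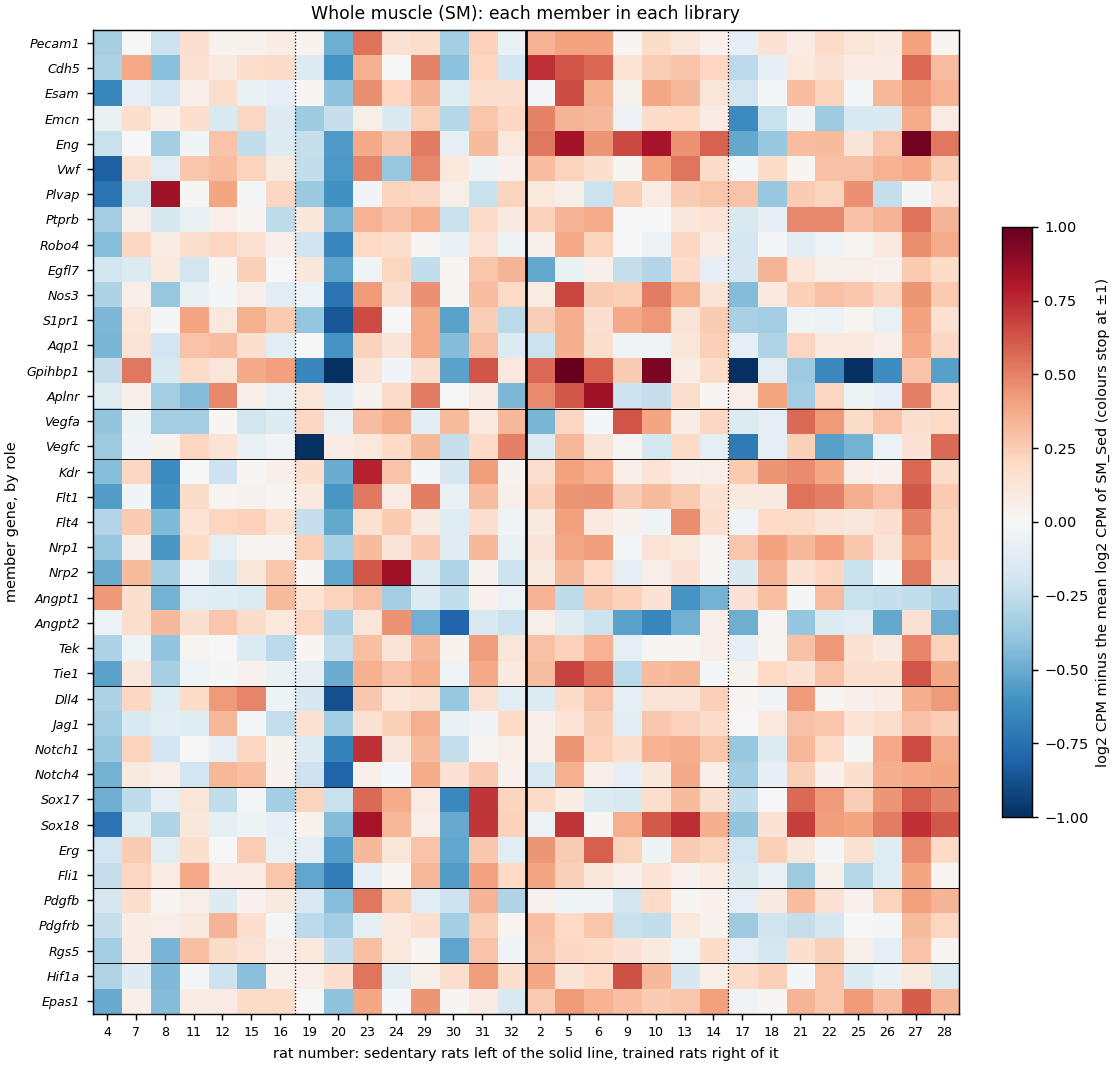
Level of each of the 39 members (rows, grouped by role) in each of the 30 SM libraries (columns, by rat number; the dotted lines part rats 2 to 16 from rats 17 to 32). Colour gives log2 CPM minus the gene's mean log2 CPM in SM_Sed. Sedentary rats 4 and 20 are blue in nearly every row and sedentary rat 23 and trained rat 27 are red in nearly every row, so single libraries differ by more than the 2 arms do.

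Single muscle libraries moved the members together, as the heat map of whole muscle shows. In SM_Sed, 38 of 39 members lay below the arm's own mean in rat 4 and 36 of 39 in rat 20, while 35 of 39 lay above it in rats 23 and 31. The median member was at -0.52 (log2, relative to the SM_Sed mean) in rat 20 and at 0.3 in rat 23, and in SM_ExT it ran from -0.16 in rat 17 to 0.39 in rat 27. This range within an arm was wider than the difference between the arms. In the same libraries the 20 other endothelial genes had medians of -0.45 (rat 20), 0.25 (rat 23) and 0.45 (rat 27), and the 10 other mural genes -0.35, 0.35 and 0.26. The 7 skeletal fibre markers, mostly of fast fibres, were lowest in the same rats 23 and 27, at -0.49 and -0.63, and the 6 slow fibre markers were at -0.7 in rat 20, 0.85 in rat 23 and 0.59 in rat 27. The slow fibre markers were lowest in other libraries, at -1.66 in sedentary rat 24 and -1.6 in trained rat 22, where the median member was at 0.13 and 0.17. Sedentary rats 8, 4 and 7 came next, at -1.51, -1.31 and -1.23, with the median member at -0.22, -0.36 and 0.06. The skeletal fibre markers were highest of SM_Sed in rat 4, at 0.41, and stood at 0.06 in rat 20. The part of fibre type in the members' levels was not tested.

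Epas1, which encodes the HIF-2α subunit and is strongly expressed in endothelium, had the smallest p of the members in SM. It ran from 170 to 328 CPM with a median of 250 in SM_Sed, and from 235 to 367 with a median of 299 in SM_ExT. The arms overlapped, and 13 of 15 trained rats lay above the sedentary median. The log2 difference was 0.29 (SE 0.0782, edgeR adjusted p 0.109). Without sedentary rat 23 or sedentary rat 29, each left out alone, it passed, at 0.31 (adjusted p 0.0468) and 0.32 (adjusted p 0.0384), and DESeq2 gave an adjusted p of 0.0388. Hif1a, its relative of the same family, was at 0.12 (SE 0.0872, adjusted p 0.552).

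Among the endothelial genes, Eng encodes endoglin, a co-receptor for TGF-β family ligands on endothelium. It ran from 43.2 to 91.7 CPM (median 61.9) in SM_Sed and from 44.8 to 125 (median 87.4) in SM_ExT. Above the sedentary median lay 13 of 15 trained rats, but the lowest trained rat was close to the lowest sedentary one. The log2 difference of 0.42 (SE 0.123) had an edgeR adjusted p of 0.14. The other genes of this group ranged from -0.0037 (Egfl7, a factor secreted by endothelium) to 0.24. Cdh5, the adherens junction protein VE-cadherin, was at 0.24, Ptprb, its partner phosphatase, and Nos3, endothelial nitric oxide synthase, at 0.23 each, and Pecam1, the junction protein CD31, at 0.15. Over the 15 endothelial genes, 14 lay above 0, 7 had an unadjusted p under 0.05, 0 were called, and the median was 0.15. Aqp1, the water channel of capillaries, was at 0.07, with medians of 186 CPM in SM_Sed and 182 in SM_ExT.

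The VEGF receptors lay on the same side. Flt1, the VEGF receptor VEGFR1, ran from 47 to 103 CPM (median 73.3) in SM_Sed and from 76 to 110 (median 87.6) in SM_ExT. Every trained rat was above the sedentary median, although the highest sedentary rats lay within the trained range. Its log2 difference was 0.3 (SE 0.0919, adjusted p 0.158). Kdr, VEGFR2 and the main signalling receptor for VEGF-A, was at 0.21 (SE 0.0985, adjusted p 0.342), with 15 of 15 trained rats above the sedentary median of 79.2 CPM, and Nrp1, the co-receptor neuropilin-1, was at 0.23 (SE 0.0747, adjusted p 0.175). All 5 receptors and co-receptors lay above 0, and 4 of 5 had an unadjusted p under 0.05. Of the ligands, Vegfa was at 0.18 (SE 0.093, adjusted p 0.39), with 262 to 555 CPM in SM_ExT and 274 to 462 in SM_Sed, and Vegfc, the ligand of lymphatic vessels, was at -0.04 (SE 0.121).

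The angiopoietin system was split. Angpt2, which encodes a ligand released by endothelium that loosens vessels, was the member with the lowest log2 difference, -0.27 (SE 0.101, unadjusted p 0.0114, edgeR adjusted p 0.231). Its levels were 4.45 to 10.5 CPM with a median of 8.38 in SM_Sed and 4.9 to 8.51 with a median of 6.64 in SM_ExT. Only 1 of 15 trained rats lay above the sedentary median. In the 14 rats that also gave LV, however, the Angpt2 difference in SM was 0.03. Angpt1, the ligand that steadies vessels through the receptor TIE2, was at -0.03 (SE 0.097), whereas Tek, which encodes TIE2, was at 0.16 (SE 0.0738) and its relative Tie1 at 0.25 (SE 0.0913, adjusted p 0.216).

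All 4 Notch genes and all 4 transcription factors lay above 0, with medians of 0.14 and 0.18, and 0 were called. Jag1, a Notch ligand, was at 0.16 (SE 0.0642), the receptor Notch1 at 0.21 (SE 0.0995), and Dll4, the Notch ligand of sprouting tip cells, and Notch4, an endothelial receptor, at 0.11 each. Of the factors, Sox18 was at 0.37 (SE 0.132, adjusted p 0.221), from 9.7 to 28.7 CPM in SM_Sed and 12.3 to 27 in SM_ExT, while Fli1 of the ETS family was at 0.02. The pericyte genes had a median of 0.08. Pdgfb, the endothelial ligand that recruits pericytes, was at 0.09 (SE 0.075), its pericyte receptor Pdgfrb at 0.0033 (SE 0.0757) and the pericyte marker Rgs5 at 0.08 (SE 0.0741). All 3 had an unadjusted p above 0.05.

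**Figure D2:**
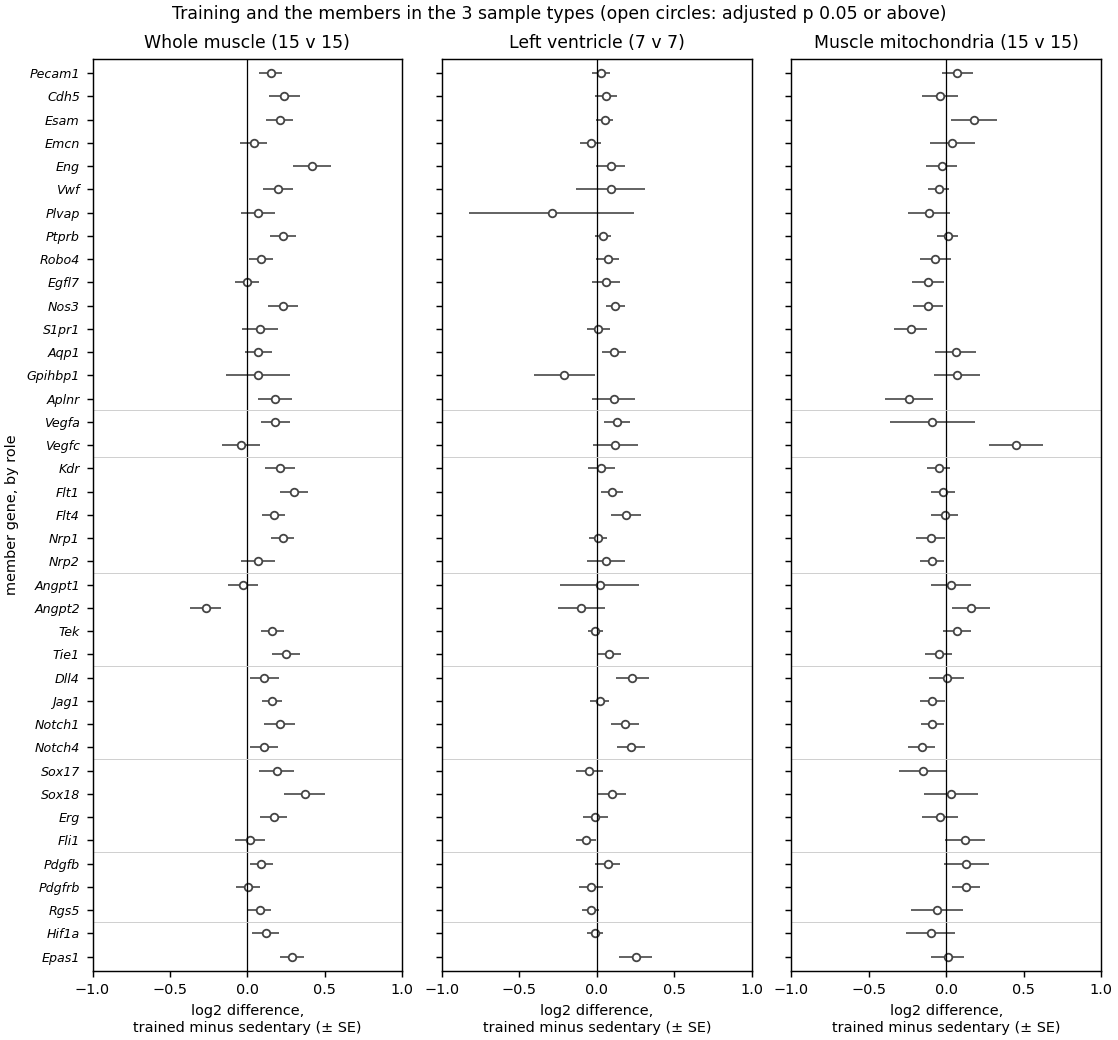
Log2 difference between trained and sedentary rats (horizontal axis, with bars of ± 1 SE) for each member (rows, grouped by role) in SM, LV and MT. All circles are open, since 0 of 39 members had an adjusted p under 0.05 in any of the 3; in SM 35 lie right of 0, in LV 28 and in MT 16.

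Promoter sequence was set beside these values for some of the members. RefSeq's windows on the build GRCr8 covered 25 of the 40 listed genes, Cldn5 among them, and the 250 bases before each annotated start were searched on both strands for 3 motifs. The first was ACGTG, the core of the hypoxia response element. The second was CNGGAAGT, a site of the ETS factors to which Erg and Fli1 belong. The third was the GATA site AGATAAG. Below are the windows of Epas1 and Eng, which had the smallest p in SM, and of Tie1 and Hif1a, whose windows held matches. The windows of Flt1 and Nrp1, which came between Eng and Tie1 by p, held none of the 3 motifs and are not printed. Matches are in capitals.
Epas1 (chr6:13624730-13624979, minus strand): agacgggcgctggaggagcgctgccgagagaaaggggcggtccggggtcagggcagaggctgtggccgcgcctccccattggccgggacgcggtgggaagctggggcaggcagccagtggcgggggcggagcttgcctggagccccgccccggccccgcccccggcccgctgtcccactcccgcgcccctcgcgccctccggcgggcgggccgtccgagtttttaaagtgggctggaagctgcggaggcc
Eng (chr3:36332029-36332278, plus strand): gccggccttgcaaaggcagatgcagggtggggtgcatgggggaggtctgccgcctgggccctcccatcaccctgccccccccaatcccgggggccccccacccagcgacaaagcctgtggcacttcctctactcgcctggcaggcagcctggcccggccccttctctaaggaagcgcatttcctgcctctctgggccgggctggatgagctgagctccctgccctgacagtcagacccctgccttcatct
Tie1 (chr5:137304982-137305231, minus strand): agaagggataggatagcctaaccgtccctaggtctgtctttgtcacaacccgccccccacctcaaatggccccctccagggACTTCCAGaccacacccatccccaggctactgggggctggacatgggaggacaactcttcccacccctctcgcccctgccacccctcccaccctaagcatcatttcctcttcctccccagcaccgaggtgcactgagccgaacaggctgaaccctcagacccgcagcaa
Hif1a (chr6:98359648-98359897, plus strand): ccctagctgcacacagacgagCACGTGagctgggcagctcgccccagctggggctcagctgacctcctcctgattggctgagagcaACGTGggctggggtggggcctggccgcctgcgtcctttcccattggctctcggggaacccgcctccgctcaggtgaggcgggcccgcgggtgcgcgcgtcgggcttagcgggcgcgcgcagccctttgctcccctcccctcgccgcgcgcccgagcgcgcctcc
The Tie1 window held 1 ETS match, on the strand opposite to the gene, 169 to 162 bases before the start. The Hif1a window held 3 matches to ACGTG. A pair of these overlap on the 2 strands, within bases 229 to 224 before the start, and the third lies at bases 164 to 160. The Epas1 and Eng windows held none of the 3 motifs, which says only that these letters are not in these windows. Over all 27 windows of these 25 genes, ACGTG was found in 2 (Hif1a and Robo4), against 16.6% of 33469 RefSeq windows of the same length. CNGGAAGT was found in 2 (Egfl7 and Tie1), 7.41% of these windows and 7.41% of all windows, and AGATAAG in 1 (Erg), against 2.54% of all windows. A match describes the sequence and is not evidence of binding.

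Of the other genes of these pathways, 0 were called in SM in any of 4 lists. Of 20 other endothelial genes, 16 lay above 0, against 47.9% of all genes, and 8 had an unadjusted p under 0.05, with the smallest p for Podxl, a sialomucin of the vessel surface, at 0.44 (SE 0.119, edgeR adjusted p 0.11). The median of this list was 0.17. Of 24 other angiogenic signalling genes, 15 lay above 0 (10 in rats 17 to 32, where the median was -0.0036), with Unc5b, an endothelial guidance receptor, at 0.4 (adjusted p 0.09) and Ephb4, a receptor of veins, at 0.35 (adjusted p 0.121). Of 10 other mural genes, 8 lay above 0, with the smooth muscle genes Acta2 at 0.49 (adjusted p 0.163) and Myh11 at 0.4 (adjusted p 0.194). Of 11 tested hypoxia response genes, 8 lay above 0, and the glucose transporter gene Slc2a1 (0.51, adjusted p 0.119) and the glycolytic gene Ldha (-0.32, adjusted p 0.18) lay on opposite sides. Markers of other cell types differed as well, none past the test: the median was 0.34 for 6 slow fibre markers, -0.16 for 7 skeletal fibre markers, -0.17 for 6 fibroblast markers and -0.3 for 6 immune markers. It was 0.48 for 4 Schwann cell markers, 0.31 for 4 tested cardiomyocyte markers and 0.29 for 3 erythroid markers, all of them above 0, and the erythroid median was 0.61 in rats 2 to 16 and -0.12 in rats 17 to 32. Of the skeletal fibre markers 6 lay below 0, while Myh2 was at 0.5 (edgeR adjusted p 0.175). The 5 lymphatic markers had a median of 0.16, with 3 above 0 and 2 below. The genes named from these lists were chosen after their values were seen. The summed immune markers ran from 36.6 to 120 CPM in SM_Sed and 30.9 to 66.3 in SM_ExT, and the fibroblast markers from 2320 to 12500 and 2360 to 5800. Their part in the members' differences was not tested.

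The muscle comparison was repeated within ranges of rat numbers. The libraries were split into rats 2 to 16 and rats 17 to 32, a split taken from an earlier analysis of these data. The labels do not say what sets the ranges apart. In rats 2 to 16 (7 per arm), edgeR called 6 of 39 members, against 2.95% of 13423 genes. Eng, Nos3, Sox18, Hif1a and Flt1 rose in trained muscle, 5 members against 2.16% of all genes, and Angpt2 fell, 1 against 0.79%. In rats 17 to 32 (8 per arm), it called 0 of 39 members and 0.00732% of 13662 genes, with 2 members at an unadjusted p under 0.05, against 6.02% of all genes. The members' median was 0.24 in rats 2 to 16 and 0.1 in rats 17 to 32. In each range 33 of 39 lay above 0, against 49.1% and 49.4% of all genes. Other lists held calls in rats 2 to 16 too. Called higher were 5 of 20 other endothelial and 5 of 23 tested angiogenic signalling genes, against 2.16% of all genes. So were 1 of 10 other mural and 1 of 11 hypoxia response genes. Called lower was 1 other endothelial gene, against 0.79%. In rats 17 to 32, 0 were called in these 4 lists.

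Eng had the smallest p in the earlier range. In rats 2 to 16 it ran from 50.5 to 77.7 CPM in SM_Sed and from 86.6 to 114 in SM_ExT, so that the arms did not overlap, and the log2 difference was 0.72 (SE 0.0914, edgeR adjusted p 0.00154). In rats 17 to 32 it ran from 43.2 to 91.7 and from 44.8 to 125, and the difference was 0.14 (SE 0.194, adjusted p 0.944). In the earlier range Nos3 rose by 0.44 (adjusted p 0.0197), Sox18 by 0.59 (adjusted p 0.0362), Hif1a by 0.44 (adjusted p 0.0392) and Flt1 by 0.41 (adjusted p 0.048), and Angpt2 fell by 0.41 on the log2 scale (adjusted p 0.0472). Their later-range values were 0.05, 0.2, -0.13, 0.21 and -0.13, none past the test. Hif1a thus lay on opposite sides of 0. Epas1 was at 0.36 (adjusted p 0.0591) in rats 2 to 16 and at 0.23 (adjusted p 0.82) in rats 17 to 32, and in the former its arms did not overlap, with 170 to 275 CPM in SM_Sed and 287 to 325 in SM_ExT. Nos3 also had arms without overlap in rats 2 to 16, with 24.2 to 32.9 CPM in SM_Sed and 33.4 to 50.1 in SM_ExT. The share of all genes whose arms did not overlap in this range was not counted. The list of 6 slow fibre markers had a median of 0.86 in rats 2 to 16 and of -0.13 in rats 17 to 32, and its part in these values was not tested.

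Whether the training difference itself changed with the range was tested by an interaction term, and 0 of 39 members passed (edgeR, 0.0% of 13570 genes called; 5 members at an unadjusted p under 0.05, against 13.3% of all genes). The smallest p was that of Hif1a, at -0.57 (SE 0.143, adjusted p 0.183). Gpihbp1, which anchors lipoprotein lipase to the capillary wall, was at -0.79, Eng at -0.57, Vegfa at -0.35 and Nos3 at -0.38 (adjusted p 0.273, 0.29, 0.351 and 0.365). With its sign counted, the difference was higher in the earlier range for 28 members. It was above 0 in both ranges for 29 members, below 0 in both for 2 and of opposite sign for 8. These counts were not made over all genes. Between the ranges, with training held in the model, 1 member was called higher and 1 lower in rats 17 to 32, against 6.0% and 6.99% of all genes. Gpihbp1 was lower in rats 17 to 32 by a log2 difference of -0.68 (SE 0.166, adjusted p 0.00616), and the arterial endothelial factor Sox17 was higher by 0.32 (SE 0.101, adjusted p 0.0337). In the 14 rats that also gave LV, 0 members passed in SM and the median was 0.15.

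In the left ventricle, training left the members without a called difference (0 of 39, and 0.0% of 14488 genes called by edgeR, with 0 by DESeq2). An unadjusted p under 0.05 was found for 3 members, against 5.9% of all genes. Epas1 was at 0.25 (SE 0.104, adjusted p 0.804), from 78.6 to 114 CPM (median 87.5) in LV_Sed and 85.3 to 132 (median 109) in LV_ExT, and 6 of 7 trained rats lay above the sedentary median. Notch4 was at 0.22 (SE 0.0904), from 15.2 to 18.6 CPM in LV_Sed and 16.1 to 24.1 in LV_ExT, and Dll4 was at 0.23 (SE 0.104), from 10.1 to 14.5 and 11.3 to 18. The arms overlapped for all 39. All 4 Notch genes lay above 0, with a median of 0.2, as did 28 of 39 members, against 50.0% of all genes, and the members' median was 0.06. Leaving out 1 library moved that median between 0.02 and 0.07, with 0.02 and 0.03 without trained rats 17 and 27 and 0.04 without trained rat 18 or sedentary rat 30. Vegfa was at 0.13 (SE 0.0851), from 228 to 321 CPM in LV_Sed and 264 to 360 in LV_ExT, and 7 of 7 trained rats lay above the sedentary median of 259. Flt4 and Notch1 were at 0.19 and 0.18 with unadjusted p of 0.0599 and 0.0603. The endothelial genes Pecam1 (0.03), Cdh5 (0.06), Kdr (0.03) and Tek (-0.01) and the pericyte genes Pdgfrb and Rgs5 (-0.04 each) were closer to 0. Eng and Flt1, which were among the members of smallest p in SM of all 30 rats, were at 0.09 and 0.1, and Angpt2 was at -0.1. In SM of the 14 rats that also gave LV, Eng was at 0.28, Flt1 at 0.2 and Angpt2 at 0.03.

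The spread between rats in LV was narrower than in SM, with a median coefficient of variation of 9.95% in LV_Sed against 19.6% in SM_Sed and of 12.4% in LV_ExT against 15.2% in SM_ExT. The SM values come from 15 rats per arm and the LV values from 7, with another kit and deeper libraries. The part of these differences in the spread was not tested. Plvap, the diaphragm protein of fenestrated and endocardial endothelium, was the most variable member in both LV arms, from 0.919 to 5.28 CPM in LV_Sed and from 0.144 to 4.08 in LV_ExT, its lowest value resting on 10 counts in rat 27. The difference between the training effects of LV and SM was tested over the 14 rats with both. It passed for 0 of 39 members in edgeR and in DESeq2 (0.0% of 15049 genes called), 0 members had an unadjusted p under 0.05, against 4.57% of all genes, and the smallest p belonged to Nrp1 (-0.18, SE 0.117, p 0.137).

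**Figure D3:**
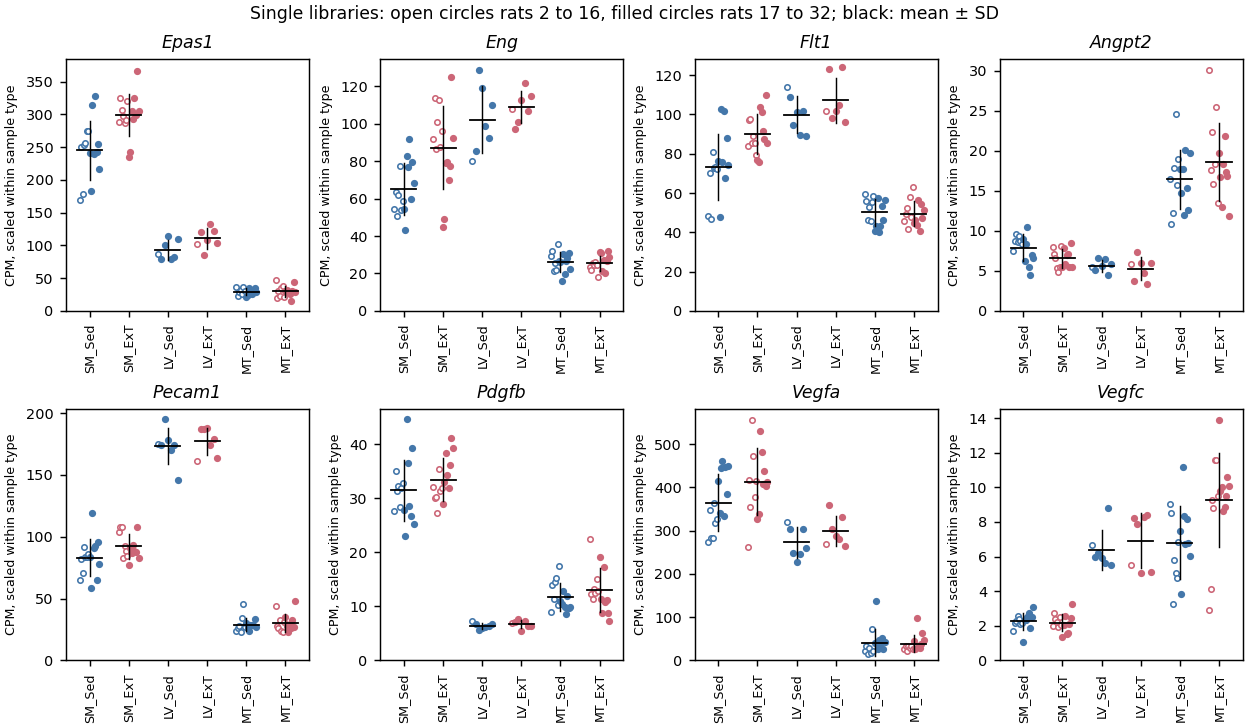
CPM of 8 members in every library of the 6 groups (horizontal axis), with open circles for rats 2 to 16, filled circles for rats 17 to 32, and the group mean ± SD in black. CPM is scaled within each sample type, so heights are compared between arms and not exactly between sample types. Eng, the member of smallest p in rats 2 to 16, shows SM_ExT values of those rats from 86.6 to 114, above all their SM_Sed values. How many of all genes part in this way was not counted.

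In the mitochondrial isolates, training again gave no called member (0 of 39, and 0.0% of 19281 genes called by edgeR; 0 members by DESeq2). At an unadjusted p under 0.05 there were 2 members, against 4.73% of all genes. Vegfc was at 0.45 (SE 0.174, unadjusted p 0.011), from 3.25 to 11.2 CPM (median 6.81) in MT_Sed and 2.92 to 13.9 (median 9.5) in MT_ExT. S1pr1, a sphingosine-1-phosphate receptor of endothelium, was at -0.23 (SE 0.105, unadjusted p 0.0323), from 18.2 to 32.7 CPM and 15.6 to 26.1. Both genes overlapped between the arms, and neither passed. Notch4 (-0.16), Aplnr, the apelin receptor gene (-0.24), and Pdgfrb (0.13) came next by p. Pecam1 was at 0.07, Cdh5 at -0.04 and Epas1 at 0.01. The members' median was -0.04, 16 of 39 lay above 0, against 50.7% of all genes, and the 5 VEGF receptors and co-receptors all lay below it, with a median of -0.05. The difference between the training effects of MT and SM passed for 0 of 39 members (0.0181% of 27684 genes called; 0 members by DESeq2), while 16 members had an unadjusted p under 0.05, against 8.5% of all genes. The smallest p were those of Nrp1 at -0.35, Flt1 at -0.34 and Eng at -0.49 (adjusted p 0.381, 0.385 and 0.402), all larger in SM than in MT, followed by Jag1 at -0.28 and Nos3 at -0.38.

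The isolates were then compared with whole muscle of the same rats. MT libraries were made from 10 ng of RNA and SM libraries from 50 ng, so isolate and input cannot be told apart. CPM is scaled here over the libraries of both sample types, so the same libraries carry other values than in the training comparisons: Aqp1 in SM_Sed ran from 182 to 358 here and from 113 to 220 there. Relative to other genes, most members were far lower in MT. In Sed rats 36 of 39 fell and 1 rose, a total of 37 called against 94.8% of all genes (33.1% lower, 61.7% higher). In ExT rats 35 fell and 2 rose, against 94.3% of all genes (35.0% lower, 59.3% higher). The members' median log2 difference (MT minus SM) was -1.93 in Sed and -2.03 in ExT, while the median of all genes was 1.81 and 1.31. Directions depended on the scaling, and the cause was not tested. With library totals in place of TMM, 12 members were called higher and 14 lower in Sed, and 8 higher and 16 lower in ExT. After thinning the counts were 11 and 18 in Sed and 12 and 12 in ExT. The shares of all genes called under these scalings were not counted.

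A core of 13 members was called lower in MT in both arms with TMM, with RLE size factors, with library totals and with libraries thinned to equal totals, wherever the gene was tested. These were Pecam1, Cdh5, Eng, Ptprb, Egfl7, Aqp1, Vegfa, Nrp1, Sox18, Pdgfb, Rgs5, Hif1a and Epas1. The share of all genes called lower under every one of these scalings was not counted. Aqp1 ran from 4.55 to 14.8 CPM in MT_Sed, against the 182 to 358 in SM_Sed. It was 27.2-fold lower, a log2 difference of -4.77 (SE 0.123, edgeR adjusted p 4.8e-34). Rgs5 ran from 120 to 218 CPM and from 3.94 to 13.3, a log2 difference of -4.73 (SE 0.126). Neither gene had an isolate that reached the lowest whole muscle library, and the same held in ExT, at -4.75 and -4.84. Such separation was common: 27 of 39 members lay wholly below SM in Sed and 31 in ExT, against 24.6% and 25.7% of all genes.

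Vegfa, which muscle fibres themselves also make, ran from 450 to 756 CPM in SM_Sed and from 9.71 to 85.1 in MT_Sed, with a log2 difference of -4.51 (SE 0.236) in Sed and -4.76 (SE 0.177) in ExT. It was the most variable member in both MT arms. On the scale set within MT it reached 137 CPM (251 counts) in sedentary rat 20 and 98.4 (167 counts) in trained rat 21, and the sum of the 7 skeletal fibre markers in these libraries, 749 and 482 CPM, ranked 4 and 6 among the 30. Next in Vegfa came sedentary rat 15 (72.6 CPM) and trained rat 27 (64.4 CPM), which ranked 1 and 3 for the fibre markers. Trained rat 2, which ranked 2 with 1160 CPM of fibre markers, had Vegfa at 27.2 CPM, below the MT_ExT median of 32.7. The part of fibre RNA in these Vegfa values was not tested. Epas1 was 21.8-fold lower in Sed (402 CPM ± 72.7 in SM and 18.4 ± 3.17 in MT, SD, n = 15 each) and 25.9-fold lower in ExT. Cdh5 was 12.5-fold and 15.1-fold lower, Nrp1 8.48-fold and 10.4-fold, and Pecam1 7.48-fold and 7.79-fold.

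A few members did not share this fall. Flt4, the VEGF-C receptor VEGFR3, which is typical of lymphatic endothelium, was higher in MT under all 4 scalings in both arms. It ran from 11.5 to 20.3 CPM in SM_Sed and from 19.7 to 36.3 in MT_Sed, was higher in MT in 15 of 15 rats, and differed by 0.73 (SE 0.094, adjusted p 9.6e-10); in ExT the difference was 0.58 (SE 0.0858) and 14 of 15 rats showed it. Its ligand Vegfc was at 0.22 (SE 0.15, adjusted p 0.161) in Sed and rose by 0.73 (SE 0.152, adjusted p 1.9e-05) in ExT. Gpihbp1 was at 0.21 and 0.23, not called in either arm, although with the rat as a block it was called in ExT, at 0.35. Angpt2 fell by 0.33 on the log2 scale in Sed and was at 0.14 in ExT, not called. Relative to the median of all genes all of these lay below 0 with TMM, Flt4 at -1.08 and Vegfc at -1.59 in Sed.

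Call directions turned with the scaling for 14 members, among them all 4 Notch genes (Dll4, Jag1, Notch1 and Notch4) and the ETS factors Erg and Fli1. The share of all genes whose call direction turned was not counted. Notch4 fell by 0.55 on the log2 scale in Sed with TMM and stood at 1.09 with library totals and 0.99 after thinning, each past the test. Fli1 was at -0.63 in ExT with TMM and at 1.07 with library totals. Lists of other cell types moved too. In Sed the median log2 difference was -9.56 for 7 skeletal fibre markers, -6.73 for 6 slow fibre markers, -4.51 for 6 fibroblast markers, -1.66 for 20 other endothelial genes and -2.14 for 10 other mural genes. It was -0.23 for 3 tested erythroid markers, 0.52 for 6 immune, 0.41 for 5 lymphatic, 0.4 for 4 Schwann cell and 3.55 for 4 adipocyte markers. The 6 cardiomyocyte markers had a median of 2.99, with 5 called higher in MT and 1 lower. Genes of smell and pheromone receptors, 1260 in all, which neither muscle nor vessels are known for, took 1.66% of the counts on nuclear genes in MT_Sed and 0.00117% in SM_Sed. Their bearing on the members' counts in MT was not tested.

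**Figure D4:**
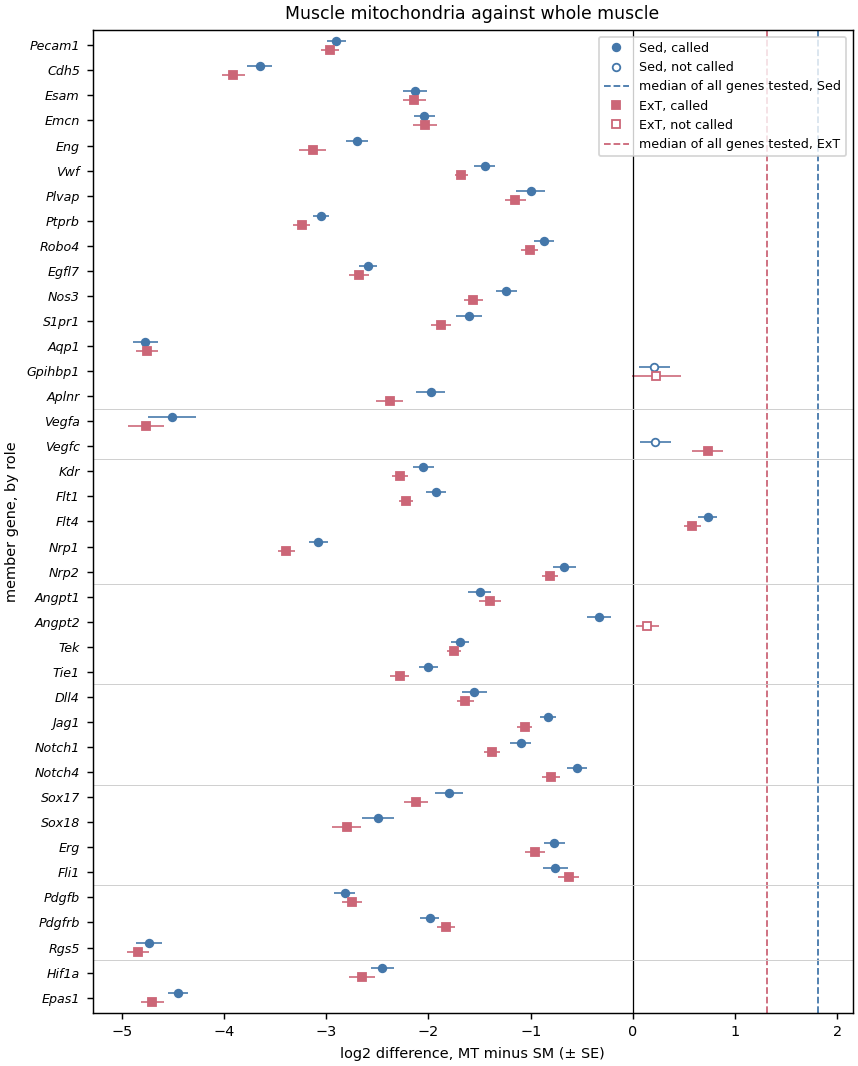
Log2 difference of MT minus SM with ± SE for each member, circles for Sed and squares for ExT, filled where called; dashed lines give the median of all genes tested, 1.81 in Sed and 1.31 in ExT. All members lie left of both dashed lines, from -4.84 for Rgs5 in ExT to 0.73 for Flt4 in Sed and Vegfc in ExT.

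Finally, the left ventricle was compared with the red gastrocnemius of the same 14 rats. The LV libraries were made with another kit (Illumina TruSeq Stranded with Ribo-Zero, from 100 ng of RNA) than those of SM (Zymo-Seq RiboFree, from 50 ng), so tissue and kit cannot be told apart. CPM is again scaled over the libraries compared, so that Epas1 in LV_Sed ran from 71.3 to 105 here and from 78.6 to 114 in the training comparison. In Sed rats edgeR called 27 of 39 members, 15 higher and 12 lower in LV, against 78.7% of all genes (40.0% higher, 38.6% lower). In ExT rats it called 26, 11 higher and 15 lower, against 79.3% (39.7% higher, 39.5% lower). Neither share exceeded that of all genes. Without overlap, 7 members lay above SM and 6 below in Sed, against 27.9% and 28.1% of all genes. The counts in ExT were 8 and 9, against 27.9% and 29.1%. In both arms 11 members were higher and 12 lower, 9 were called in neither, 7 in one arm, and 0 in opposite directions. With library totals alone the split was 20 higher and 8 lower in Sed and 17 and 10 in ExT, but no member was called in opposite directions by any of the scalings tried. For all genes, the shares under these other scalings were not counted.

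Ligands are given beside their receptors. Pdgfb was among the members most below SM: it ran from 24.4 to 41.5 CPM in SM_Sed and from 5.04 to 6.87 in LV_Sed, 5.22-fold lower (log2 difference -2.38, SE 0.106, edgeR adjusted p 9.02e-14), and was 5.95-fold lower in ExT. Nothing in LV reached the SM range. Its receptor Pdgfrb was at 0.31 (SE 0.0882) in Sed, called higher, and at 0.18 in ExT, not called. Vegfa fell by 0.69 on the log2 scale in Sed and by 0.6 in ExT, and the groups did not overlap, while its receptors Kdr (0.08 and -0.13) and Flt1 (0.2 and 0.09) were not called in either arm. With the rat as a block, Flt1 was called in Sed. Vegfc ran from 1.13 to 3.29 CPM in SM_Sed and from 5.05 to 8.1 in LV_Sed and rose by 1.32 (SE 0.171) in Sed and 1.49 (SE 0.179) in ExT, whereas its receptor Flt4 was lower, at -0.3 and -0.38. Angpt1 rose by 1.58 (SE 0.148) and 1.78 (SE 0.242), from 13.4 to 19.7 CPM in SM_Sed to 31.8 to 68.5 in LV_Sed, and its receptor Tek by 0.56 and 0.47, while Angpt2 fell by 0.46 and 0.59 on the log2 scale. The co-receptor gene Nrp2 rose by 1.05 (SE 0.12) and 0.89 (SE 0.128). With library totals alone, Flt4 (-0.06 and -0.18) was called in neither arm and Angpt2 (-0.22) not in Sed, whereas Flt1 was called higher in both (0.44 and 0.28, adjusted p 0.00485 and 0.0134), Kdr in Sed (0.31, adjusted p 0.0155) and Pdgfrb also in ExT (0.39, adjusted p 0.0111).

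All 4 transcription factors and all 4 Notch genes lay below 0, higher in SM, in both arms. With library totals alone, Jag1 (0.04), Notch1 (0.03), Erg (0.12) and Fli1 (0.12) lay above 0 in Sed, and these 4 were called in neither arm. Sox17 was at -1.46 (SE 0.163) and -1.72 (SE 0.116), Sox18 at -1 (SE 0.146) and -1.24 (SE 0.143), Dll4 at -0.91 and -1.02, and Notch4 at -0.97 and -0.9, all called in both arms. Epas1 ran from 193 to 347 CPM in SM_Sed, above all LV_Sed libraries, and was 3.07-fold lower in Sed and 3.13-fold lower in ExT, while Hif1a was higher, by 0.15 (SE 0.064) and 0.25 (SE 0.0701), a call lost in Sed with RLE size factors (0.13, adjusted p 0.0699). Erg, Fli1 and Notch1 were called lower in ExT but not in Sed, and Notch1 and Fli1 lost the call with the rat as a block and with nuclear-encoded genes only.

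Endothelial surface genes were divided. Pecam1 ran from 61.5 to 101 CPM in SM_Sed and from 134 to 177 in LV_Sed, with no overlap, and was higher by 0.92 (SE 0.0981) in Sed and 0.79 (SE 0.071) in ExT. Emcn, the capillary and venous sialomucin endomucin, was higher by 0.86 and 0.85 and Vwf, the clotting factor stored in endothelium, by 0.57 and 0.43. Cdh5, another pan-endothelial junction gene, was lower, at -0.41 (SE 0.133) and -0.53 (SE 0.108), although with library totals alone it was at -0.18 in Sed and not called, and Plvap was at -2.31 (SE 0.285) and -2.77 (SE 0.452). Gpihbp1 was higher by 1.01 (SE 0.249) and 1.09 (SE 0.225). The endothelial genes did not share 1 direction between the tissues. Nos3, Esam, Robo4, S1pr1, Aqp1 and Aplnr were called in neither arm, although with library totals alone Esam (0.41 and 0.26) and Aqp1 (0.39 and 0.3) were called higher in both and Robo4 (0.43) in Sed. Of the 20 other endothelial genes 12 were called higher and 3 lower in Sed, of the 10 other mural genes 2 and 5, and of the 5 lymphatic markers 5 and 0.

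**Figure D5:**
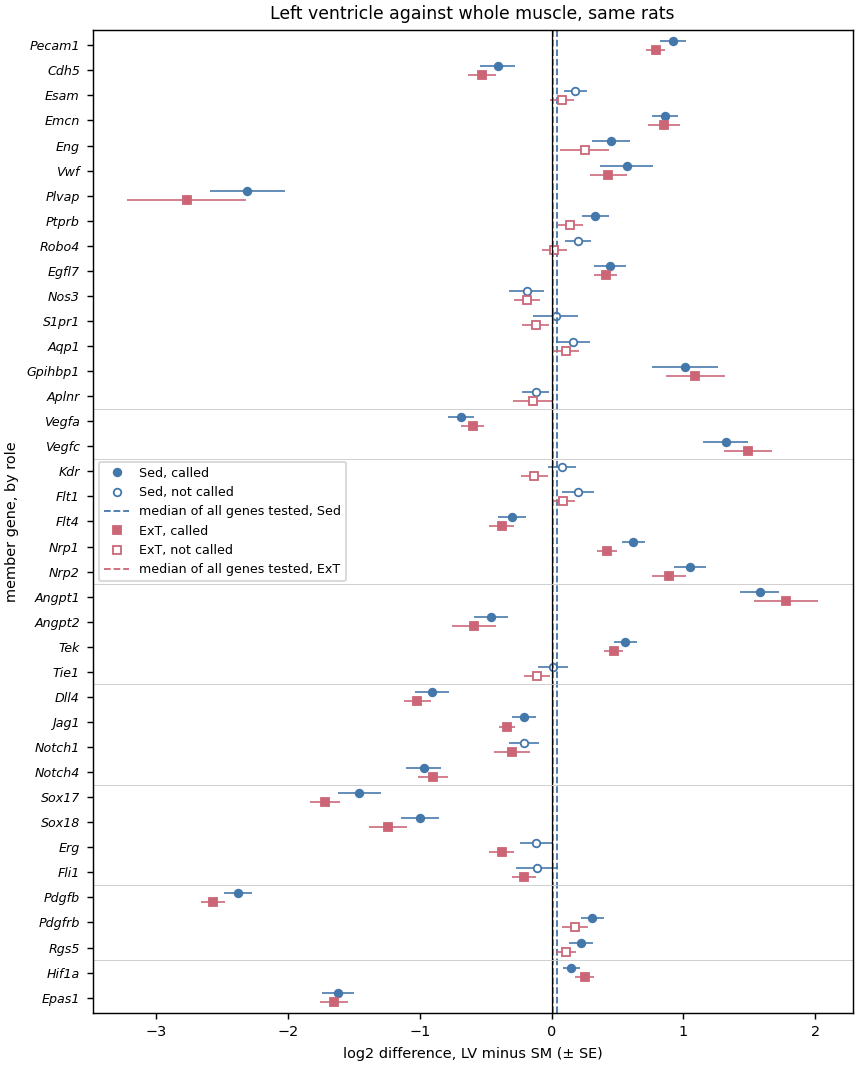
Log2 difference of LV minus SM in the same rats with ± SE for each member, circles for Sed and squares for ExT, filled where called; dashed lines give the median of all genes tested, 0.04 in Sed and 0.01 in ExT, where it meets the line at 0. Both arms place Angpt1 and Vegfc furthest right, at 1.32 to 1.78, and Pdgfb and Plvap furthest left, at -2.31 to -2.77.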

How the data were processed

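Counts per gene of 74 rat libraries were used as deposited by the authors, as whole-number counts in 1 table each for SM, MT and LV. Per the submitters' processing notes, FastQC 0.74, cutadapt 4.6, STAR 2.7.11a and HTSeq were used with the build mRatBN7.2; annotation version and strand setting are not given in the sources used here, so reads of overlapping genes cannot be told apart. Members were matched by symbol. Each comparison was fitted on all genes with edgeR 4.0.16 (R 4.3.3; TMM, filterByExpr, robust quasi-likelihood test), with Benjamini-Hochberg adjustment over all genes tested and calls under 0.05; SE is the log2 difference divided by the square root of F. The fit was tested on simulated data. DESeq2 1.42.0, RLE size factors, library totals, no filter, thinning, nuclear-encoded genes only, rat ranges and leaving out each library were alternatives. For SM, thinning, the 14 rats with LV and the range terms, and for LV against SM nuclear-encoded genes only, were added after seeing the data.

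Groups were taken from the labels. Samples with the same number come from the same rat, so the numbers pair SM, MT and LV; deviations of libraries of the same rat had a median correlation of 0.00426 between MT and SM (30 rats) and 0.0152 between LV and SM (14 rats). Trained and sedentary rats share no numbers. Depth was unequal, and 3 counts corresponded to 0.0761 to 0.154 CPM in SM, 0.3 to 5.66 in MT and 0.0396 to 0.0549 in LV, for counting error only. The members and lists were chosen with earlier results of these data known. Named were 13 anchor genes (Pecam1, Cdh5, Kdr, Flt1, Vegfa, Angpt2, Tek, Dll4, Pdgfrb, Rgs5, Hif1a, Epas1, Aqp1), called members or else the 5 of smallest p for training and interactions, and the 5 highest and 5 lowest log2 differences for MT and LV against SM; other members were added for their role. Promoter windows came from RefSeq (GRCr8) and were used for sequence only.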

Additional observations from a re-analysis of the deposited data

Results flagged for a closer look

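In the left ventricle, 2 of 78 group values held a library that stood apart from the rest of its group of 7 (gap to the nearest library over 0.568 of the group's range). Chance alone flags about 1 in 20 such groups. Vegfc in LV_Sed was 8.83 CPM in rat 31, and the nearest other library was at 6.67. Vwf in LV_ExT was 258 CPM in rat 25, and the nearest other library was at 172.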

How the results depend on the processing

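Training in SM gave 0 called members with RLE size factors, without the filter, with the rat range as a covariate, with nuclear-encoded genes only, after thinning, in rats 17 to 32 and in the 14 rats with LV. It gave 1 with DESeq2 (Epas1) and 6 in rats 2 to 16; over the 30 fits that each left out 1 library it ranged from 0 to 1, with 33 to 37 members above 0. Training in LV and in MT gave 0 under every alternative run. For MT against SM, the count in ExT was 24 with library totals alone and 24 after thinning, when 29 members were tested; in Sed it was 26 and 29 (of 34 tested). Of single members, Angpt2 turned from -0.33 to 0.08 (RLE), 0.07 (DESeq2) and 1.31 (library totals) in Sed and from 0.14 to -0.03 without the filter in ExT; Notch4 in Sed turned to 1.09 (library totals) and 0.99 (thinned), Fli1 in ExT to 1.07 (library totals), and Pdgfrb for training in MT to -0.00071 in rats 2 to 16. The causes were not tested, except that thinning left fewer genes to test. With the rat as a replicate block, 37 members were called in MT against SM in Sed, 38 in ExT (Gpihbp1 gained), 28 in LV against SM in Sed (Flt1 gained), 24 in ExT (Notch1 and Fli1 lost) and 0 in both interactions; the block changed no other call. No paired analysis was possible for training because trained and sedentary rats share no numbers. Depth limits MT most, where a member's lowest library held 3 counts.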
